A study of Homo sapiens with 47 samples.

Results

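The DNA replication and mitosis genes described here are 42 genes chosen by name, from the subunits of the replicative helicase to the kinases and motors of mitosis, out of 58051 genes listed in each library. Each symbol was matched to 1 Ensembl gene. By role, 8 act in origin licensing, 7 in helicase activation and DNA synthesis, 6 in the G1/S decision, 9 in mitotic entry, 10 in the spindle, its checkpoint and cytokinesis, and 2 in chromosome structure. The first 3 roles hold 21 members and are called the replication roles below, and the last 3 hold the other 21 and are called the mitosis roles.

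Bulk poly(A) RNA-seq was made from WA09 (H9) human embryonic stem cells, an established line, in 3 numbered differentiations (r1, r2 and r3), giving 47 libraries. The groups are undifferentiated hESCs (t0), neuromesodermal progenitor (NMP)-like cells after 36 h, and passages P1 to P10, labelled pre-neural progenitor (PNP) and neural crest (NC) cultures, with 3 libraries each and 2 at P9 (r1 and r2). All cells after t0 were kept in N2B27 without vitamin A, with the WNT agonist CHIR-99021, FGF2, the retinoic acid receptor blocker AGN193109 and the ROCK inhibitor Y-27632, whose dose was higher over the first passages than later by the study's methods. At P5 and P8, epithelial (EPI, labelled PNP) and mesenchymal (MES, labelled NC) cells were enriched by selective detachment, 3 libraries each. All libraries came from 1 cell line, and the EPI and MES libraries are enrichments, not pure populations. In bulk RNA a change in the share of cycling cells and a change in RNA per cell cannot be told apart.

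A cell licenses its origins in G1, when CDC6 and CDT1 load the MCM2-7 helicase onto DNA. At G1/S, cyclin E with CDK2 and the E2F factors release a wave of transcription that supplies helicase activators, the sliding clamp PCNA and the enzymes of nucleotide synthesis. The DREAM complex represses many cell cycle genes in quiescence and early G1. A later wave, driven by MuvB with B-MYB and FOXM1, supplies the cyclins, kinases and motors of G2 and mitosis. Human pluripotent cells are known for a short G1 and high cyclin E.

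Library depth ran from 13029491 to 64082859 expected counts with a median of 47292229, and no member fell below 170 expected counts in any library. The 6 hESC markers summed to 169217 to 179148 normalized counts at t0, against 4126 to 8154 at P8. At P5 the smooth muscle and mesenchyme markers summed to 14646 to 25685 in EPI and 57795 to 74800 in MES. At P8 they summed to 33956 to 82264 in EPI and 91706 to 176575 in MES, while the 10 NC markers overlapped between fractions, with 15386 to 69829 in EPI and 28344 to 86621 in MES. P1.r1 stood apart from its group, with hESC markers at 79754 against 12391 and 9333 in P1.r2 and P1.r3. P10.r1 also stood apart, with PNP epithelial markers at 26997 against 2351 and 2425. Results that rest on these libraries are given with and without them.

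The promoters of the replication and mitosis roles differ in their letters. RefSeq promoter windows (GRCh38.p14, 250 bases before to 50 after a start) were matched for 33 of the 42 members. A set of 3 motifs was searched on both strands, namely the letters of E2F sites (TTCCCGC and also the form TTGGCGC and also the form TTCGCGC and also the form TTGCCGC), the cell cycle homology region or CHR (TTTGAA and also the form TTCGAA), which MuvB complexes read, and the CCAAT box, read by NF-Y. E2F letters can overlap a CCAAT box. A member with several windows was counted once if any window held the letters. E2F letters were in 14 of 17 matched members of the replication roles and in 4 of 16 of the mitosis roles, against 15.3% of 27305 genes with a window. CHR letters were in 1 of 17 and in 12 of 16, against 19.5% of genes. CHR and CCAAT letters together were in 1 of 17 and in 11 of 16, against 7.85%. These matches are a description of letters in a window and not of bound sites. The 160 bases before the start are shown for 4 members of the replication roles and 4 of the mitosis roles, chosen because they show these layouts, or in CCNE1 their absence, and recur in the results, with E2F, CHR and CCAAT letters in capitals.

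MCM6: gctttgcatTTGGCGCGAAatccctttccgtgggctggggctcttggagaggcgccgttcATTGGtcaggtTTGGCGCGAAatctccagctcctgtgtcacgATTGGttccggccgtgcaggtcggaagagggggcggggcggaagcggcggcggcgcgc
TYMS: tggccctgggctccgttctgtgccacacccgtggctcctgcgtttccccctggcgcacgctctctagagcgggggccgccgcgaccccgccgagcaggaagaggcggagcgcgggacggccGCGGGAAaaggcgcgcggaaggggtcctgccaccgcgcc
E2F1: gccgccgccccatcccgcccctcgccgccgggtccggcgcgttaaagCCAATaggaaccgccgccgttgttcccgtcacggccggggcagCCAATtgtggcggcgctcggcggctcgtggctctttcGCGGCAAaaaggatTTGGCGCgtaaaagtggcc
CCNE1: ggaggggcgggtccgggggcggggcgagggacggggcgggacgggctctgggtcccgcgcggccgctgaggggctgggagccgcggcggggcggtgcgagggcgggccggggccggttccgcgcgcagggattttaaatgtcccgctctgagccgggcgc
CCNB2: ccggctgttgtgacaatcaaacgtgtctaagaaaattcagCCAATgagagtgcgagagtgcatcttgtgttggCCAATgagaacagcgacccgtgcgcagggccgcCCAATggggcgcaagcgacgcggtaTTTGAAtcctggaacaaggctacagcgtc
PLK1: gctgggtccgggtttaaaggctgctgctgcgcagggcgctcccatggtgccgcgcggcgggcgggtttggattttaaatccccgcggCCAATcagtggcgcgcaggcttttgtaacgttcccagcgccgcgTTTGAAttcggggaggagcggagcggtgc
KIF11: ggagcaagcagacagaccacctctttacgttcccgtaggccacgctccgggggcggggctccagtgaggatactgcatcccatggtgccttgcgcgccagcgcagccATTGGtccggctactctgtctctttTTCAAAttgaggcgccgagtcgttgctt
CDC20: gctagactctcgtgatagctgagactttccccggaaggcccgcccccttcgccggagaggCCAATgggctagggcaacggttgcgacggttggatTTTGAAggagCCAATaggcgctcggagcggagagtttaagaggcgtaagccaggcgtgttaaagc

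These stretches lie at chr2:135876444-135876603 (MCM6, minus strand), chr18:657493-657652 (TYMS, plus strand), chr20:33686386-33686545 (E2F1, minus strand), chr19:29811831-29811990 (CCNE1, plus strand), chr15:59104986-59105145 (CCNB2, plus strand), chr16:23678729-23678888 (PLK1, plus strand), chr10:92592970-92593129 (KIF11, plus strand) and chr1:43358821-43358980 (CDC20, plus strand). MCM6, a helicase subunit, has E2F letters at -151 and -89 on the plus strand, each overlapped by a minus-strand match 3 bases on. It is also the 1 matched member of the replication roles with CHR letters, at -246 and so outside the stretch shown. It has CCAAT letters at -100 and -58 on the minus strand. TYMS, which makes thymidylate, has 1 E2F match at -39, and E2F1, itself a G1/S activator, has matches at -33 and -19. The stretch of CCNE1, which encodes cyclin E1, holds none of these letters. CCNB2 (cyclin B2) and PLK1 (polo-like kinase 1) have CHR letters at -29, and KIF11 (the kinesin Eg5) has them at -28 on the minus strand. CCAAT letters stand upstream of each of these 3 CHR matches, the nearest at -54, -73 and -53. CDC20, an activator of the anaphase-promoting complex, has CHR letters at -65 between CCAAT letters at -100 and -55.

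All 42 members stayed expressed from t0 to P10. No member fell below 218 normalized counts in any of the 47 libraries, and their summed share of all counts stayed between 0.551% and 0.96%. Per length, the median over libraries ran from 7.54 TPM for E2F2, an E2F activator, to 397 TPM for TYMS and 401 TPM for CCNB1, which encodes cyclin B1. The level of a library is the mean over members of the log2 normalized count, each gene counted from its own t0 mean. It ran from -0.56 in P2.r3 to 0.27 in P7.r1, and 40 of 47 libraries lay within 0.3 of t0. On log2(TPM + 1) the group means were 0.33 at P5, 0.32 at P6 and 0.40 in P5 EPI. Group means were 0.11 ± 0.03 at 36 h, 0.17 ± 0.02 at P1 and 0.17 ± 0.01 at P5 (SD, n = 3). They were -0.06 ± 0.26 at P8 and -0.13 ± 0.14 at P10 (SD, n = 3), and -0.40 ± 0.05 at P9 (SD, n = 2). The P8 libraries were at 0.20, -0.31 and -0.08 and the P10 libraries at 0.02, -0.22 and -0.21, and with r1 left out of t0 as well as of the passages the means were -0.17 at P8 and -0.19 at P10. Within-group scatter made up 46.2% of the sum of squares of the level over the 35 whole cultures. P2, P7 and P8 spread the most between differentiations, and P5 the least.

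**Figure D1:**
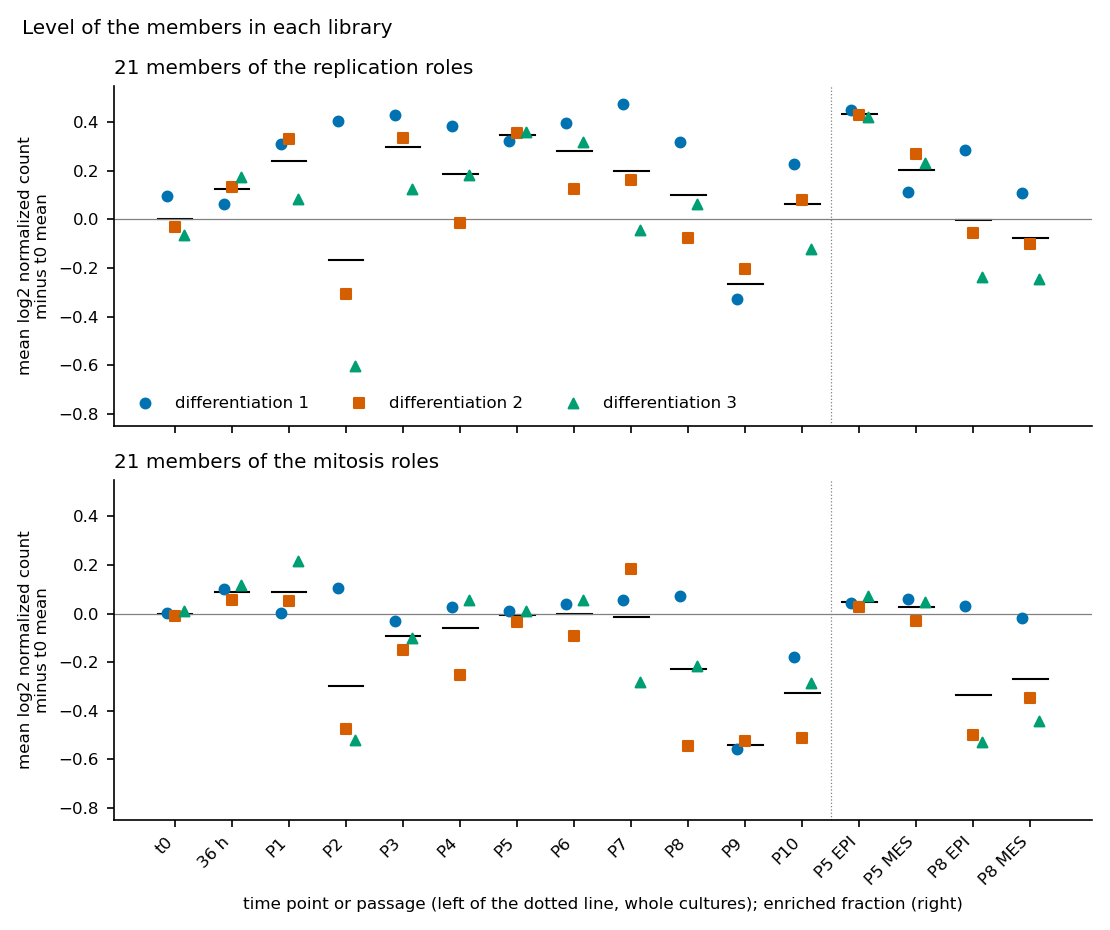
Each point is 1 library, with colour and shape for the differentiation, and its height is the mean over 21 members of log2 normalized counts minus each gene's t0 mean. Bars are group means. The points of P5 lie together, those of P2 and P8 spread, with r1 highest, and both P9 points lie below t0.

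The means of the roles differed, though roles were not tested against each other. At P5 the G1/S regulators stood 0.76 ± 0.03 above t0 and the genes of helicase activation and DNA synthesis 0.50 ± 0.03 above it, while origin licensing stood at -0.10 ± 0.01 and spindle genes at -0.08 ± 0.03 (SD, n = 3). At P8 the G1/S regulators were at 0.62 ± 0.17, origin licensing at -0.45 ± 0.22 and spindle genes at -0.34 ± 0.34 (SD, n = 3). The mean of the 6 G1/S regulators depended on CCNE2, which stood 2.89 above t0 at P8, while CCNE1 stood at -1.60. Without CCNE2 the other 5 were at 0.43 ± 0.02 at P5 and at 0.16 ± 0.24 at P8, and without TYMS the other 6 genes of helicase activation and DNA synthesis were at 0.37 ± 0.03 at P5 (SD, n = 3). Tested gene by gene with edgeR's quasi-likelihood test over 21750 genes, with Benjamini-Hochberg adjustment and a call at an adjusted p under 0.05, 35 of 42 members differed somewhere among the 12 time points, where 68.7% of all genes did.

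**Figure D2:**
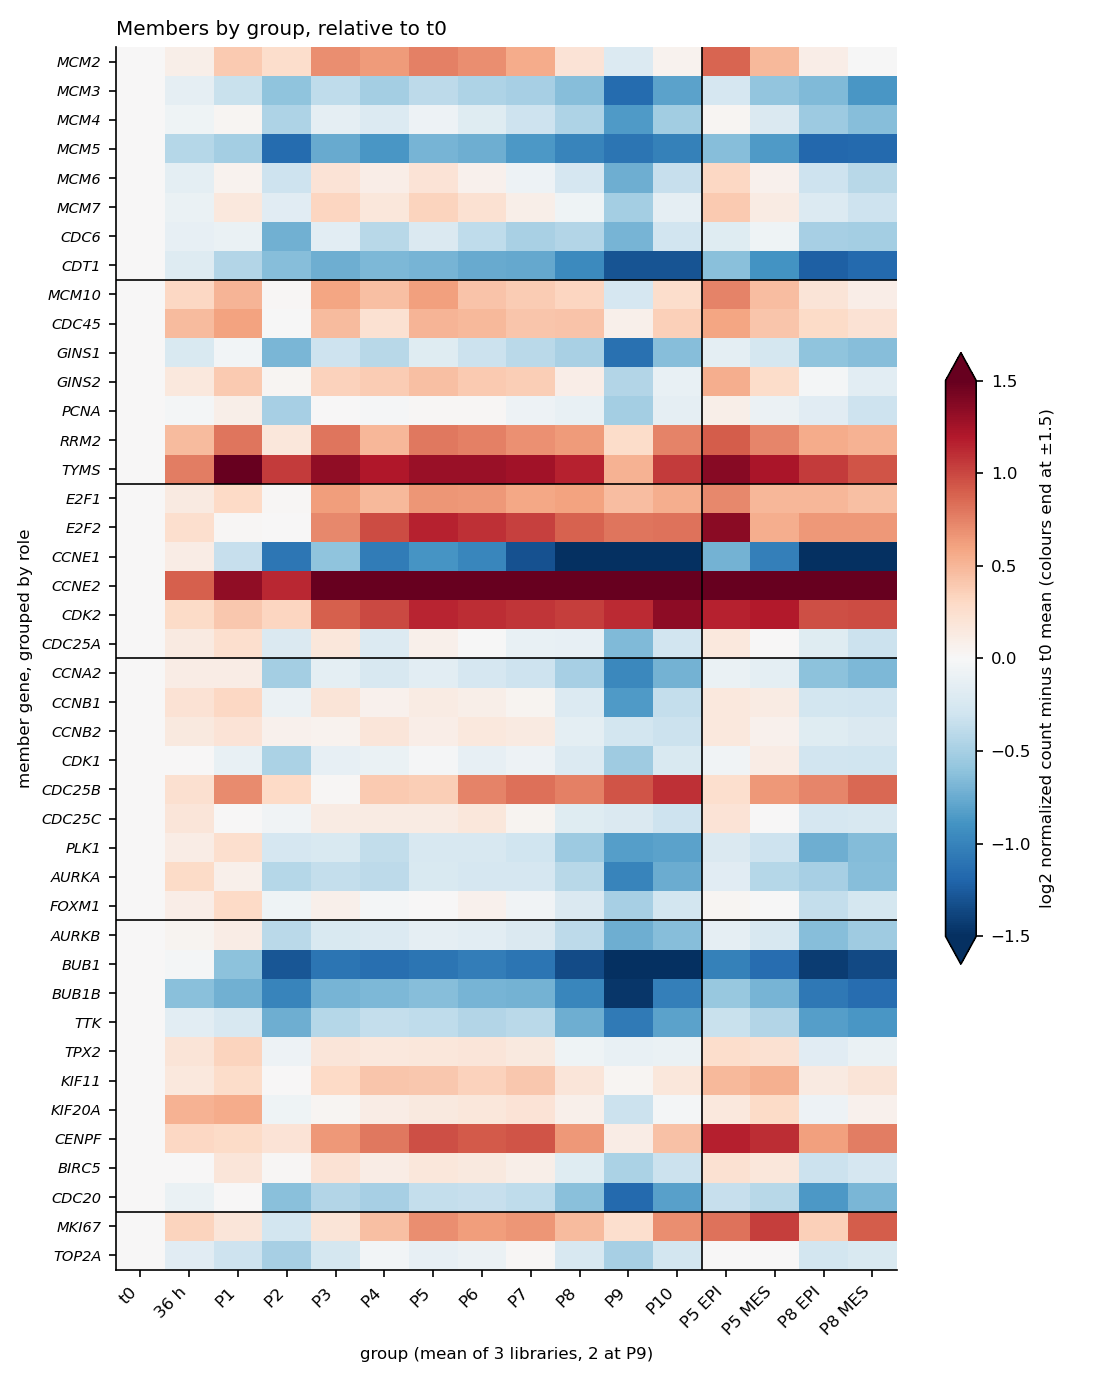
Rows are the 42 members in order of role, columns are the groups, and colour is the group mean of log2 normalized counts minus the t0 mean, ending at 1.5 in both directions. CCNE2, TYMS and CDK2 turn red after t0, and CCNE1, BUB1, BUB1B, CDT1 and MCM5 turn blue.

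Induction of NMP-like cells moved few members. At 36 h against t0, 2 of 42 members rose and 1 fell, where 6.29% of genes rose and 6.06% fell. The median difference over members was 0.14 against 0.00 over all genes. CCNE2, which encodes cyclin E2, was at 218, 221 and 224 normalized counts at t0 and at 312, 417 and 532 at 36 h, a log2 fold change of 0.94 ± 0.23 (SE, adjusted p = 0.0067). TYMS went from 5257, 5165 and 5755 to 8401, 8962 and 10163, a change of 0.78 ± 0.20 (adjusted p = 0.0098). BUB1B, the checkpoint kinase BUBR1, went from 11445, 12347 and 11147 to 8002, 7374 and 7222 and fell by 0.62 ± 0.14 (adjusted p = 0.0048). In each of these 3 genes the libraries of 36 h did not overlap those of t0. Over all genes 17.4% lay higher without overlap and 21.6% lower. Leaving out r2 or r3 left 0 calls, where at most 1.21% of genes rose and 0.725% fell. Leaving out r1 gave 6, where 8.32% of genes rose and 8.70% fell.

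From 36 h to P1 1 member rose and 1 fell, where 4.14% of genes rose and 4.34% fell. TYMS rose again, to 19141, 15693 and 12209, by 0.77 ± 0.20 (SE, adjusted p = 0.018). BUB1, a kinase of the spindle checkpoint, went from 17417, 13616 and 13263 to 9956, 9068 and 10226 and fell by 0.57 ± 0.17 (adjusted p = 0.035). Without P1.r1, 4 members rose and none fell, where 7.44% of genes rose and 7.72% fell. TYMS was then at 0.68 and BUB1 at -0.50, which no longer passed. The other 3 that rose without that library were CCNE2 (0.75), the mitotic phosphatase gene CDC25B (0.61) and MCM6 (0.50). Without r2 or without r3 no member passed, TYMS included, and without the replicate block BUB1 no longer passed. Without r1 altogether the 1 member that fell was CCNE1 (-0.74) and not BUB1.

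From P1 to P5 the G1/S regulators supplied all 3 members that rose, where 8.26% of genes did. E2F2 went from 867, 425 and 525 to 1430, 1359 and 1055 (1.14 ± 0.22, adjusted p = 0.00095). CCNE2 went from 349, 769 and 635 to 1132, 1252 and 1195 (1.06 ± 0.22, adjusted p = 0.0021). CDK2, the kinase that cyclin E activates, went from 2537, 3308 and 2590 to 4215, 4736 and 5088 (0.76 ± 0.17, adjusted p = 0.0038). The P5 libraries of each gene lay above every P1 library, where those of 15.9% of all genes did. PLK1 was the 1 member that fell, where 9.05% of genes did, from 8561, 8117 and 8484 to 5761, 5950 and 6268 (-0.46 ± 0.16, adjusted p = 0.047). At the study's stricter setting, which asks for an FDR under 1%, a 2-fold change and 100 normalized counts on average, 2 members passed, E2F2 and CCNE2, where 4.00% of genes did. Without P1.r1 the 4 calls were kept, with CCNE2 at 0.79 and E2F2 at 1.33. Without the replicate block PLK1 no longer passed. Without r2 no member did, where 1.70% of genes rose and 1.85% fell. Without r3 E2F2 and CCNE2 did, where 2.41% of genes rose and 2.19% fell.

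By P8 the members had divided. Against t0, 8 of 42 rose and 11 fell, where 25.4% of all genes rose and 24.9% fell, so the members changed about as often as other genes. DESeq2 called 8 higher and 14 lower, where it called 26.1% and 27.0% of genes. The median difference over members was -0.14 and over all genes 0.02. In all, 5 members passed the stricter setting, where 15.4% of genes did.

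The opposite courses of the E cyclins were the widest. CCNE2 went from 218, 221 and 224 normalized counts at t0 to 1410, 1832 and 1689 at P8, a log2 fold change of 2.92 ± 0.24 (SE, adjusted p = 1.5e-09), the largest of any member in this comparison. At P10 it reached 2119, 2228 and 2033. CCNE1 (chromosome 19, 29811898 to 29824308 in GRCh38) went the other way, from 2256, 1646 and 1804 at t0 to 1008, 484 and 491 at P8, and fell by 1.54 ± 0.27 (adjusted p = 5.7e-05). Neither gene's P8 libraries overlapped those of t0, where 30.4% of all genes lay higher without overlap and 33.2% lower. Per length, the CCNE2 to CCNE1 ratio of TPM was 0.096 to 0.13 across the t0 libraries, 0.829 to 1.33 at P5, and 2.75 to 2.94 at P10. At P8 the libraries r1, r2 and r3 had ratios of 1.13, 3.26 and 2.75. CCNE1 was the more abundant cyclin E transcript in all 3 t0 libraries and CCNE2 in all 3 P10 libraries.

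CDK2 (chromosome 12, 55966769 to 55972784) rose with CCNE2, from 2128, 2194 and 2020 at t0 to 3985, 4140 and 4989 at P8 (1.07 ± 0.17, adjusted p = 2.1e-05). E2F1 rose from 1642, 1548 and 1716 to 2526, 2324 and 2621 (0.64 ± 0.18, adjusted p = 0.0057). E2F2 rose from 526, 565 and 632 to 1386, 690 and 1230 (0.93 ± 0.22, adjusted p = 0.0010). For each of these 3 genes every P8 library lay above every t0 library, where 30.4% of all genes did so. CDC25A, a phosphatase that activates CDK2, did not pass (-0.10 ± 0.18, adjusted p = 0.68).

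Some members share positions with a gene on the other strand, and the strand setting of the counting is not given in the sources used here, so reads could be shared. CCNE2 overlaps INTS8 by 1977 bases, and INTS8 went from 4692 to 3770 normalized counts on average between t0 and P8 (log2 fold change -0.29, adjusted p = 0.016). CDK2 overlaps PMEL along 6016 bases, and PMEL went from 4147 to 1709 (-1.43, adjusted p = 0.076). TYMS overlaps ENOSF1 by 3255 bases, and ENOSF1 went from 1044 to 943 (-0.12, adjusted p = 0.76). CCNE2 also overlaps NDUFAF6 by 912 bases, and NDUFAF6 went from 333 to 366 (0.15, adjusted p = 0.60). Of these 4 partners, INTS8 alone passed. Whether reads were shared was not tested. Among the partners of other members, ERN2 fell (-3.54, adjusted p = 0.0010) as PLK1 did, from 54.2 to 4.81 normalized counts over an overlap of 42 bases. FAM53C over CDC25C (0.66), AP4M1 over MCM7 (0.51), ITFG2 and RHNO1 over FOXM1 (0.51 and -0.48) and BRD8 over KIF20A (0.47) also passed, where the member did not.

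**Figure D3:**
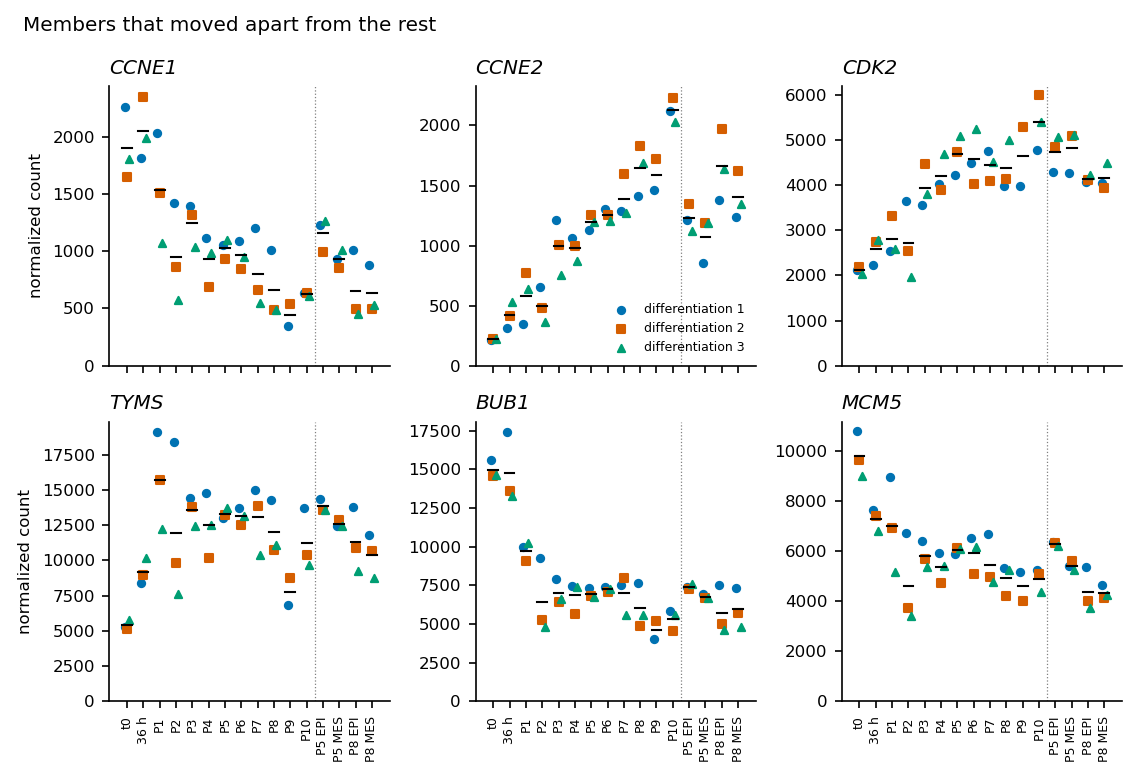
Normalized counts of 6 members in every library, by group, with group means as bars and differentiations as colours. CCNE2 climbs while CCNE1 drops, CDK2 and TYMS climb, and BUB1 and MCM5 drop early and stay low.

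Of the 8 members of origin licensing, 4 fell by P8 and none rose, where 24.9% of all genes fell and 25.4% rose. They were 4 of the 11 members that fell. MCM5 went from 10797, 9626 and 9010 at t0 to 5337, 4211 and 5254 and fell by 0.96 ± 0.15 (SE, adjusted p = 1.7e-05). CDT1 went from 3615, 3800 and 3068 to 1912, 1479 and 2064 (-0.93 ± 0.16, adjusted p = 4.2e-05). MCM3 was at -0.60 ± 0.15 (adjusted p = 0.0019) and MCM4 at -0.43 ± 0.17 (adjusted p = 0.039). The other subunits of the hexamer did not pass, namely MCM2 (0.26 ± 0.14, adjusted p = 0.14), MCM6 (-0.21 ± 0.18, adjusted p = 0.35) and MCM7 (-0.03 ± 0.16, adjusted p = 0.90), and differences between subunits were not tested. CDC6 did not pass either (-0.41 ± 0.22, adjusted p = 0.13).

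In helicase activation and DNA synthesis, TYMS and RRM2 rose among 7 members, where 25.4% of all genes rose. TYMS was at 14312, 10718 and 11077 at P8 (1.17 ± 0.20 against t0, adjusted p = 3.8e-05). RRM2, a subunit of ribonucleotide reductase, went from 9645, 8197 and 7449 to 14500, 12538 and 12159 (0.67 ± 0.27, adjusted p = 0.046). RRM2B, which is no member and encodes another subunit of that enzyme, fell (-1.60 ± 0.29, adjusted p = 9.4e-05). MCM10, CDC45, GINS1, GINS2 and PCNA did not pass, with differences from -0.46 (GINS1) to 0.45 (CDC45).

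In mitotic entry 2 of 9 members fell and 1 rose, where 24.9% of all genes fell and 25.4% rose. PLK1 was at -0.51 ± 0.16 (SE, adjusted p = 0.0093) and CCNA2, which encodes cyclin A2, at -0.46 ± 0.16 (adjusted p = 0.017). CDC25B rose, from 2201, 2725 and 2528 at t0 to 4185, 4051 and 4310 at P8 (0.79 ± 0.18, adjusted p = 0.0010). CDK1, the mitotic kinase, did not pass (-0.17 ± 0.15, adjusted p = 0.36), nor did CCNB1, CCNB2, CDC25C, AURKA and FOXM1.

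Among the 10 members of the spindle, its checkpoint and cytokinesis, BUB1, BUB1B, TTK and CDC20 fell, where 24.9% of all genes fell and 25.4% rose. BUB1 (chromosome 2, 110637698 to 110678114) went from 15585, 14606 and 14618 at t0 to 7669, 4856 and 5564 at P8 (-1.30 ± 0.17, adjusted p = 1.3e-06). BUB1B was at -0.94 ± 0.14 (adjusted p = 9e-06), the checkpoint kinase gene TTK at -0.69 ± 0.14 (adjusted p = 0.00042) and CDC20 at -0.58 ± 0.18 (adjusted p = 0.011). CENPF, a kinetochore protein of G2 and mitosis, was the 1 member of this role that rose (0.76 ± 0.26, adjusted p = 0.017), although its P8 libraries were at 41538, 16015 and 21499 against 15433, 14576 and 16479 at t0, so that P8.r2 lay within the t0 range. Without r1 its difference was 0.29 and no longer passed. AURKB, TPX2, KIF11, KIF20A and BIRC5 did not pass.

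MKI67 and TOP2A, the common markers of cycling cells, did not pass at P8 against t0. MKI67 was at 16393, 13920 and 16111 at t0 and at 32430, 14814 and 20332 at P8 (0.56 ± 0.24, adjusted p = 0.053), and by edgeR it passed with all 47 libraries in 1 fit, without the replicate block, without P1.r1 and without P10.r1 (adjusted p = 0.038, 0.048, 0.032 and 0.043). Without r1, whose P8 library was the highest, its difference was 0.24 (adjusted p = 0.23), and by the other alternatives, DESeq2 and leaving out r2 or r3 included, it did not pass (adjusted p from 0.051 to 0.14). TOP2A was at 37515, 37397 and 38802 and at 39156, 24641 and 34581 (-0.19 ± 0.15, adjusted p = 0.31).

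At P2 the differentiations parted. P2.r2 and P2.r3 had levels of -0.39 and -0.56 against 0.26 in P2.r1, and 40 of 42 members were lower in both than in r1. In r2 and r3, 38 of 42 members were below the same differentiation's P1 and P3 values, against 4 of 42 in r1. RRM2 was at 17124, 8764 and 5585 at P2, between 13746, 17113 and 13308 at P1 and 18375, 14523 and 11724 at P3. PCNA was at 13637, 7371 and 4983, after 13991, 12520 and 9730. All 42 members had a negative P2 against P1 estimate, with a median of -0.40 against 0.00 over all genes. By edgeR only MCM5 passed (-0.62 ± 0.15, adjusted p = 0.049), where 0.257% of genes fell and 0.671% rose. It did not pass without P1.r1 (-0.52, adjusted p = 0.12), without the replicate block (-0.61, adjusted p = 0.17) or with no filter on low counts (-0.62, adjusted p = 0.080), and no other member did. The median was -0.45 without P1.r1. Without r1 altogether 32 members were lower, where 6.83% of genes were. Without r2 or r3 none was, where 0.00% of genes were. At an unadjusted p under 0.05 there were 27 members, where 17.1% of genes passed, and DESeq2 called 8 lower, where it called 1.91% of genes lower. CDKN1C, the CDK inhibitor p57, was at 3015 and 1765 normalized counts in P2.r2 and P2.r3 against 414 in P2.r1, and the stress gene DDIT3 was at 1344 in P2.r3 against 124 and 204. The cell type markers differed between the same libraries, with sums in P2.r1, P2.r2 and P2.r3 of 44286, 7110 and 3670 for NMP, 26822, 9806 and 9639 for PNP and 20633, 7161 and 5022 for hESC markers. Their part in the P2 values was not tested.

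From P5 to P8 the whole cultures again differed by differentiation. The median member difference of r1 was 0.01, that of r2 -0.52 and that of r3 -0.31, and 18, 40 and 37 of 42 members were lower. In the joint test no member passed in either direction by edgeR, where 0.198% of genes rose and 0.0644% fell, and 14 of 42 had an unadjusted p under 0.05, where 13.3% of genes had. DESeq2 called 1, MCM2 (-0.54), where it called 0.837% of genes lower. Without r1, edgeR called 6 lower, led by CCNE1 (-1.09) and MCM2 (-0.80), where 2.57% of genes were lower. MCM2 was at 15212, 15378 and 14231 at P5 and at 14421, 7961 and 9390 at P8, so that only r1 stayed near its P5 value. In r1, r2 and r3 the NC markers summed to 16633, 18424 and 31192 at P5 and to 17342, 47267 and 73733 at P8. The PNP epithelial markers summed to 40260, 30129 and 22490 at P5 and to 47587, 31617 and 16520 at P8. The part of these markers was not tested.

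The fractions carried the same split. In EPI the difference of the level between P8 and P5 was -0.09 for r1, -0.51 for r2 and -0.63 for r3, and in MES it was -0.04, -0.34 and -0.48. The EPI, MES and whole-culture libraries of 1 differentiation are samples of the same run and are not independent of each other.

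In EPI at P8 against P5, 17 of 42 members fell and 2 rose, where 3.50% of 19476 genes fell and 6.06% rose. The median was -0.46 over members and 0.02 over all genes. By role, 7 of 8 members of origin licensing fell. MCM2 went from 16678, 16156 and 15985 in P5 EPI to 13559, 8194 and 7710 in P8 EPI (-0.79 ± 0.15, SE, adjusted p = 0.025). MCM6 went from 15918, 15045 and 14295 to 12196, 9104 and 8434 (-0.64 ± 0.10, adjusted p = 0.018). MCM3, MCM4, MCM5, MCM7 and CDT1 fell by 0.42 to 0.60 on the log2 scale, and CDC6 was at -0.34 (adjusted p = 0.13). Every P8 EPI library of MCM2 and MCM6 lay below every P5 EPI library, where 12.4% of all genes did so. In both genes r1 was the highest at P8.

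Among the other roles in EPI, CCNE1 went from 1225, 995 and 1268 to 1009, 494 and 456 (-0.92 ± 0.23, adjusted p = 0.043), where r1 at P8 lay above r2 at P5. E2F2 was at -0.69 ± 0.17 (adjusted p = 0.045), and GINS2, a helicase activator, at -0.59 ± 0.13 (adjusted p = 0.035). BIRC5, which encodes survivin of the chromosomal passenger complex, went from 7358, 6909 and 7065 to 6463, 4173 and 4300 (-0.56 ± 0.12, adjusted p = 0.032). CDC20, BUB1B, TTK, CDC25C, TPX2 and KIF11 fell by 0.37 to 0.54. CDC25B and CCNE2 rose against the rest. CDC25B went from 2934, 3083 and 2818 to 4028, 4115 and 4238 (0.47 ± 0.07, adjusted p = 0.014), and CCNE2 from 1211, 1348 and 1118 to 1381, 1970 and 1638 (0.41 ± 0.10, adjusted p = 0.046).

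In MES at P8 against P5, 3 of 42 members fell and none rose, where 4.09% of genes fell and 6.55% rose. KIF11 was at 11587, 11813 and 12361 in P5 MES and at 10452, 9098 and 8963 in P8 MES (-0.35 ± 0.09, adjusted p = 0.043). CDK1 was at 6372, 6496 and 7799 and at 5642, 4917 and 4981 (-0.43 ± 0.10, adjusted p = 0.034), and MCM6 was at -0.50 ± 0.10 (adjusted p = 0.023). At an unadjusted p under 0.05 there were 28 members, where 30.5% of genes passed, and the median was -0.33 against 0.02 over all genes. DESeq2 called 27 members lower in EPI and 17 in MES, where it called 8.44% and 8.30% of genes lower, and it called CCNE2 higher in MES (0.37).

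These counts depend on the pairing of libraries by differentiation and on which differentiations enter. Without the replicate block, 0 members passed in EPI and 0 in MES. Over all genes that fit called 0.0106% lower in EPI and 0.191% in MES. Without r1 the counts were 38 lower and 2 higher in EPI, where 10.4% of genes were lower and 10.8% higher, and 32 lower in MES, where 9.47% of genes were lower. Without r2 or without r3 no member passed in either fraction, and at most 0.0781% of genes were lower. With all 47 libraries in 1 fit, 12 were lower in EPI and 0 in MES, where 1.19% and 0.914% of genes were lower. Compared within each differentiation, 34 of 42 members were lower at P8 than at P5 in all 3 in EPI and 29 in MES. Over all genes 23.2% and 20.1% were. CDKN1A, the CDK inhibitor p21, was at 1420, 1166 and 1186 in P5 EPI and at 2428, 2879 and 2418 in P8 EPI. CDKN1C was at 1025, 711 and 840 and at 1263, 2112 and 2599. The NC markers summed to 12115, 14890 and 21060 in P5 EPI and to 15386, 48897 and 69829 in P8 EPI, highest in r2 and r3 where the members were lowest. Their part in these differences was not tested.

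**Figure D4:**
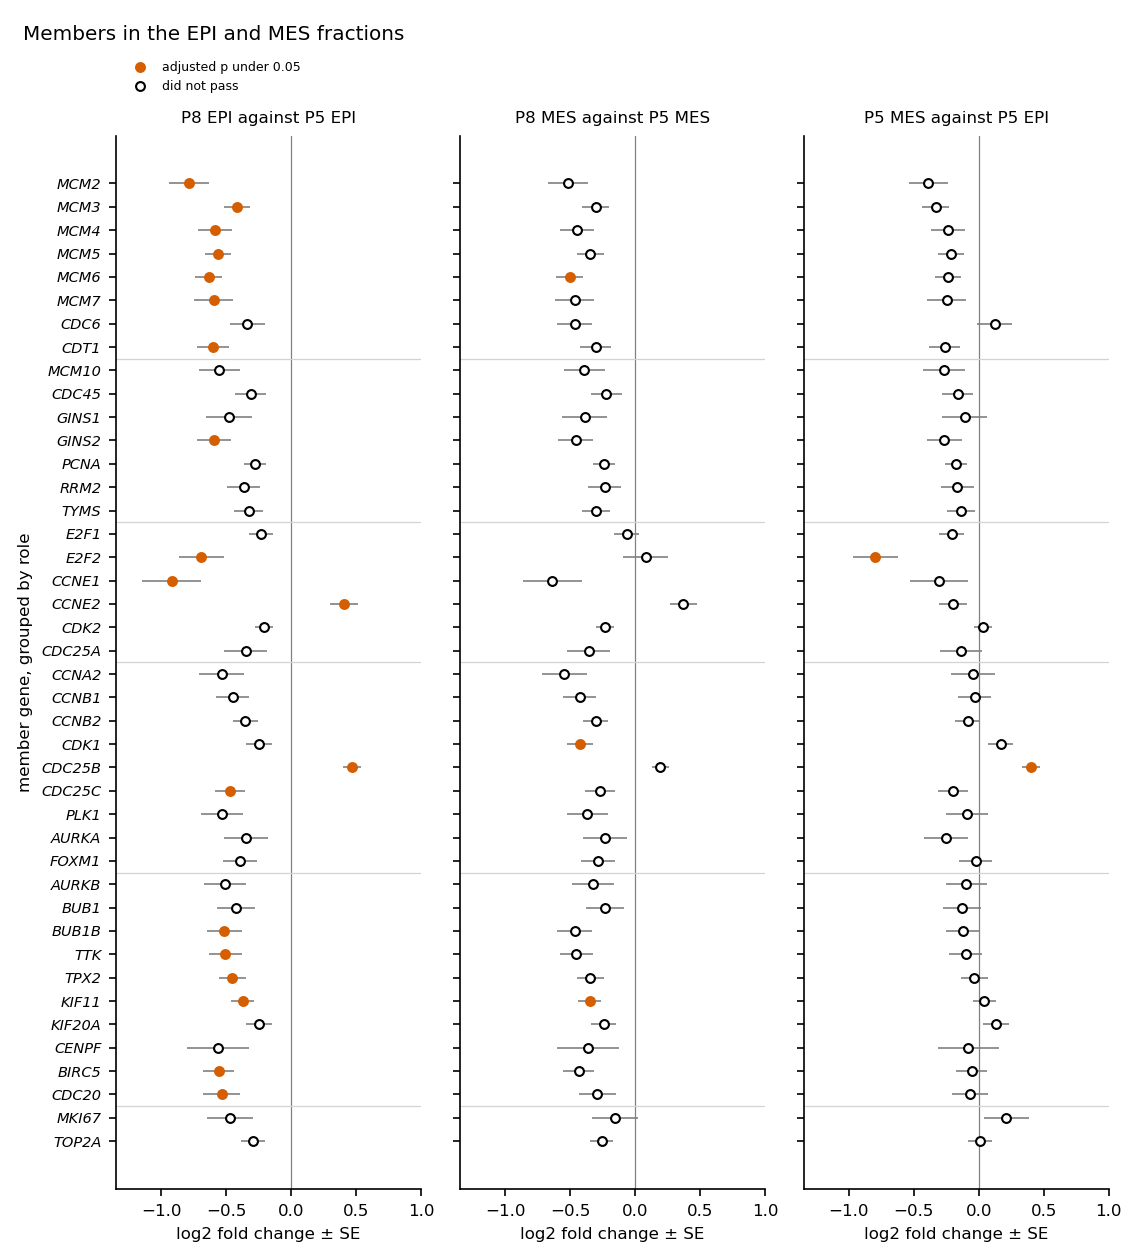
Log2 fold changes with SE of each member for P8 against P5 in EPI (left) and in MES (middle) and for MES against EPI at P5 (right), where filled points passed at an adjusted p under 0.05. Most members lie left of 0 in the first 2 panels with CDC25B and CCNE2 on the right, and the third panel holds 2 filled points, E2F2 and CDC25B.

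Few members passed between MES and EPI. At P5, 1 of 42 members was higher in MES and 1 lower, where 4.14% of genes were higher and 3.18% lower. E2F2 was at 1661, 1397 and 1341 in EPI and at 889, 898 and 728 in MES (-0.80 ± 0.17, SE, adjusted p = 0.035). CDC25B was at 2934, 3083 and 2818 in EPI and at 4091, 3757 and 3779 in MES (0.40 ± 0.07, adjusted p = 0.019). In neither gene did the fractions overlap, where 15.6% of all genes lay higher in MES without overlap and 14.9% lower. The replication roles were 0.34, 0.16 and 0.19 lower in MES in r1, r2 and r3, while the mitosis roles differed by 0.02, -0.06 and -0.03. MCM2 was at 12575, 12923 and 11726 in MES, below the 3 EPI libraries, but did not pass (-0.39 ± 0.15, adjusted p = 0.16). Of the 42 members, 20 had every MES library below every EPI library, where 14.9% of genes did. Both calls were lost without the replicate block, without r2 and without r3, where 0.00% of genes passed. They were also lost without r1, where 0.908% of genes were higher and 0.196% lower.

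At P8 no member passed between MES and EPI by edgeR, nor did any of the 19476 genes (0.00%). By unadjusted p, 1 member was under 0.05, where 11.7% of genes were, and DESeq2 called 0 members, where it called 1.98% of genes. That 1 was MKI67, at 29239, 16336 and 16138 in P8 EPI and at 31867, 26392 and 28727 in P8 MES (0.53 ± 0.18, adjusted p = 0.34), higher in MES in all 3 differentiations. The difference of the MES against EPI contrast between P8 and P5 passed for 0 members by edgeR and by DESeq2, with 2 members under an unadjusted p of 0.05, where 5.78% of genes were, so that no member was shown to differ between fractions by passage.

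At P9 and P10 against P8, 2 of 42 members fell and none rose, where 4.57% of genes fell and 5.80% rose. GINS2 was at 3531, 2277 and 2694 at P8, at 2074 and 1771 at P9, and at 3148, 2306 and 1919 at P10 (-0.40 ± 0.12, SE, adjusted p = 0.039). AURKA, a kinase of centrosome maturation, was at 4727, 3211 and 3345, at 2438 and 2522, and at 3679, 2349 and 2932 (-0.48 ± 0.15, adjusted p = 0.042). The P10 libraries of both genes overlapped those of P8. DESeq2 also called 2 lower, where it called 6.96% of genes lower, and none higher. The estimates of 39 of 42 members were below 0, with a median of -0.25 against -0.01 over all genes. Without P10.r1, 4 members fell, GINS2 (-0.46), AURKA (-0.51), MCM3 (-0.43) and MCM2 (-0.37), where 10.7% of genes fell. Without the replicate block no member passed, where 2.23% of genes rose and 1.66% fell. None passed without r2 or without r3 either, where at most 0.00444% of genes rose and 0.0178% fell. Without r1 1 member passed, CDC25B, which was higher (0.54), where 8.94% of genes rose and 10.4% fell.

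In the step from P8 to P9 5 members fell, where 3.97% of genes did, and none rose, where 6.11% of genes did. They were CCNB1 (-0.65 ± 0.19, adjusted p = 0.029), MCM10 (-0.63 ± 0.20, adjusted p = 0.045), AURKA (-0.62 ± 0.19, adjusted p = 0.040), GINS2 (-0.59 ± 0.16, adjusted p = 0.021) and MCM3 (-0.57 ± 0.17, adjusted p = 0.037). Without the replicate block none of the 5 passed, where 0.947% of genes fell. No member did without r3, where 0.592% of genes fell. With no filter on low counts 2 fell, by DESeq2 12 did, and with all 47 libraries in 1 fit 13 did, where 1.44%, 6.94% and 6.51% of genes fell. Leaving out r1 or r2 leaves 1 library at P9, so only the median is given for these fits. The median of -0.36 over members became -0.17 without r1 and -0.68 without r2. CCNB1 was at 12546, 8716 and 9662 at P8 and at 5726 and 7392 at P9. P9 had 2 libraries, and r1 lay further below its own P8 library than r2 did (median member difference -0.68 and -0.04). P9.r1 had DDIT3 at 2777 normalized counts and VEGFA, a gene of the hypoxia and stress responses, at 10180, against 189 and 945 in P9.r2, while P9.r2 had CDKN1A at 5375 against 1322. From P8 to P9 the summed PNP epithelial markers went from 47587, 31617 and 16520 to 2963 and 8127, the NMP markers from 15570, 6221 and 2712 to 533 and 828, and the NC markers from 17342, 47267 and 73733 to 65293 and 75440. Their part was not tested. From P9 to P10 no member passed by edgeR or by DESeq2, 9 had an unadjusted p under 0.05, and 38 of 42 estimates were above 0, with a median of 0.30. Without P10.r1 no member passed either, 4 had an unadjusted p under 0.05, and the median was 0.25.

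Of the 11 steps between neighbouring time points, the other 7 (P3 from P2 to P8 from P7, and P10 from P9) held no call of a member by edgeR. Of these, P3 from P2 had 18 members under an unadjusted p of 0.05, where 10.4% of genes were, and 1 called by DESeq2. Without r1, 16 members rose in that step, where 1.96% of genes did, and 1 rose without P1.r1 or with all 47 libraries in 1 fit. P10 from P9 had 9 such members, where 10.6% of genes were, and P8 from P7 had 5, where 2.93% of genes were, with 0 called by DESeq2. The other 4 steps had at most 1 such member and 0 called by DESeq2.

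Most members varied together across libraries. Over the 47 libraries, the log2 count of 35 of 42 members had a Pearson r above 0.5 with the mean of the others, with a median of 0.75. MCM4 (0.91), MCM7 (0.90) and TPX2 (0.89) followed the rest most closely. CDC25B (-0.29), CCNE2 (-0.20) and CDK2 (0.06) were the least like it, and E2F2 (0.34), MKI67 (0.39), CDT1 (0.44) and E2F1 (0.45) also lay below 0.5. These libraries share differentiations, depth and normalization, so the values are a description.

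Related genes that are not members were summarised from further lists. Of 39 other replication genes, 8 rose and 11 fell at P8 against t0, where 25.4% of all genes rose and 24.9% fell (median -0.01), the largest being PRIM1 (-1.24), DSCC1 (-1.24) and UHRF1 (1.17). Of 48 other mitosis genes, 10 rose and 8 fell (median 0.01), the largest being PBK (2.14), CKS2 (-1.08) and PRC1 (0.86). In EPI at P8 against P5, 17 of 39 and 10 of 48 fell and none rose, where 3.50% of genes fell, with medians of -0.44 and -0.40. In MES 11 and 9 fell, where 4.09% of genes did. Without r2 no gene passed in either fraction, so all of these calls were lost. Without r3 0.0156% of all genes were lower in EPI and 0.0781% in MES, and without the replicate block 0.0106% and 0.191% were. At P9 and P10 against P8, 6 of 39 and 4 of 48 fell, where 4.57% of genes did, among the latter HMMR (-0.59). At 36 h, 7 of 48 mitosis genes rose, where 6.29% of genes did, led by the kinetochore motor CENPE (1.25).

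Of 17 RB, E2F and MuvB regulators, 8 rose and 2 fell at P8 against t0, where 25.4% of all genes rose and 24.9% fell, with a median of 0.46. RB1, which restrains E2F, went from 1868, 1979 and 1674 normalized counts at t0 to 4298, 3976 and 4108 at P8 (1.20 ± 0.09, SE, adjusted p = 8e-10). The MuvB subunits LIN52 and LIN54 rose by 1.33 and 0.78. Of 7 CDK inhibitors, 6 rose and none fell. CDKN1C went from 250, 267 and 262 to 1414, 2051 and 1090 (2.56 ± 0.48, adjusted p = 0.00011), CDKN2B from 3.1, 2.1 and 2.4 to 13.5, 161 and 17.8, and CDKN2C was at 0 in all 3 t0 libraries and at 30.5, 70.9 and 75.3 at P8. Of 12 p53 target genes, 5 rose and 2 fell, against the same shares of all genes. From P5 to P8 no gene of these 3 lists passed by edgeR in whole cultures, with medians of -0.06, 1.06 and 0.41. In the fractions some did. CDKN1A rose in EPI (1.02, adjusted p = 0.019) and in MES (1.18, adjusted p = 0.0096), and CDKN1C rose in both (1.15 and 1.28, adjusted p = 0.036 and 0.023), where 6.06% and 6.55% of genes rose. RBL2, which encodes the RB relative p130, rose by 0.40 and 0.44, and 4 of the 12 p53 targets rose in EPI and 3 in MES. Without r2 no gene passed in either fraction, so these calls were lost. Without r3 0.0938% of all genes were higher in EPI and 0.537% in MES, and without the replicate block 0.0159% and 0.402% were. The part of these 3 lists in the members' values was not tested.

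Among the marker lists at P8 against t0, all 6 hESC markers fell, where 24.9% of all genes did. Of the others, 3 of 6 NMP, 2 of 7 PNP epithelial, 7 of 10 NC and 0 of 8 neuron markers rose. So did 4 of 6 smooth muscle and mesenchyme markers, where 25.4% of all genes rose. None of the other 5 lists had a marker that fell in this comparison. By edgeR at P5 MES against EPI, 4 of 10 NC markers were higher and 1 lower, 2 of 7 PNP epithelial markers were lower, 1 of 6 hESC markers was higher, 1 of 6 NMP markers was lower, and none of the 6 smooth muscle and mesenchyme markers passed. Over all genes 4.14% were higher and 3.18% lower. No gene passed without the replicate block, without r2 or without r3, so these calls were lost there.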

How the data were processed

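RNA from 47 cultures and fractions of WA09 cells was sequenced as single-end poly(A) libraries. Per the submitters' processing notes and methods the authors trimmed reads with cutadapt, aligned them with STAR 2.5.2b and quantified genes with RSEM 1.3.0 on GRCh38. The annotation release and strand setting are not given in the sources used here. The deposited gene tables hold expected counts, TPM and FPKM. Expected counts were rounded and tested, TPM was used to compare genes per length, and the deposited FPKM values were not used.

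Time points were compared over 35 whole cultures (21750 genes) and fractions over 12 libraries (19476 genes) with edgeR 4.0.16 (R 4.3.3), using filterByExpr, TMM, a block for the differentiation and the quasi-likelihood test, and p-values were adjusted over all genes (Benjamini-Hochberg). DESeq2 1.42.0 was an alternative. Other alternatives were no block, other size factors, other count filters, all 47 libraries in 1 fit, each differentiation left out, and P1.r1 or P10.r1 left out. The SE is the log2 fold change divided by the root of F. Normalized counts are counts over TMM size factors. With the block, SEs and tests cover the spread left after each differentiation's own shift is removed, and not the full spread between differentiations. All 3 differentiations are of 1 line.

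The series describes each differentiation as 1 run through all time points, which pairs the libraries by number. The mean correlation of same-numbered deviations was 0.307 between P5 and P8, 0.649 between P5 EPI and MES and -0.01 between t0 and 36 h. On simulated counts, 95% of 2-fold and 35% of 1.5-fold changes were recovered for 36 h against t0 (20180 genes), and 97% and 39% for P5 MES against EPI (18628 genes). The simulated counts had no differentiation effect and a smaller spread than the data. In the data the coefficient of variation between libraries was 33.98% for the time course and 22.97% for the fractions. These shares can therefore overstate what the tests here recover. All 42 members could be named, and of each further list the 3 genes with the largest change among those that passed. 1 gene of these lists is not reported here. CDKN1A, DDIT3 and VEGFA beside single libraries and the overlapping genes were named after their values were seen. Members and lists were chosen with earlier results of these data known. Promoters came from RefSeq GRCh38.p14 and gene coordinates from GENCODE 29.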

Additional observations from a re-analysis of the deposited data

How the results depend on the processing

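How far the calls depend on the pairing of libraries by differentiation differed between comparisons. Without the replicate block the 3 calls at 36 h were kept, 3 of the 4 from P1 to P5, and 16 of the 19 at P8 against t0, where MKI67 passed as well, while 1 member passed from 36 h to P1, 0 at P9 and P10 against P8, 0 at P5 MES against EPI, 0 at P8 against P5 in EPI, 0 in MES, and 4 over all steps between neighbouring time points, against 11 with it. DESeq2 called 1 at P8 against P5, 27 over the steps, 29 in EPI and 18 in MES. Over all genes it called 3.07% at P8 against P5, 19.2% in EPI and 19.2% in MES. Counts over the steps add the calls of all 11 steps, so a member can count more than once. No share of all genes is given beside those sums. By the stricter thresholds (FDR under 1%, a fold of at least 2, a mean of at least 100), 0 members passed at 36 h, at P1, at P9 and P10, over the steps, at P5 MES against EPI, and at P8 against P5 in EPI and in MES, while 2 passed from P1 to P5 and 5 at P8 against t0. These thresholds passed 2.71% of genes at 36 h, 1.19% at P1 and 1.25% at P9 and P10. They passed 4.00% from P1 to P5 and 15.4% at P8 against t0. In the fractions they passed 0.00% at P5 MES against EPI, 0.246% in EPI and 0.683% in MES. The paper, at the same thresholds, reports genes that differ between the P5 fractions, and more genes at 36 h than passed here. The 0.00% thus belongs to the fit used here, which holds the P5 and P8 fractions together. The level varied more at P8 (SD 0.288 in EPI and 0.2 in MES) than at P5 (0.01 and 0.025). With no filter on low counts 1 passed from 36 h to P1, 0 at P9 and P10, and 6 over the steps. With at least 10 counts in every library 18 passed over the steps. With all 47 libraries in 1 fit 24 passed over the steps, 4 at P9 and P10, 1 at P5 MES against EPI, 12 in EPI and 0 in MES. Without P1.r1 4 passed from 36 h to P1, and without P10.r1 4 passed at P9 and P10.

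Leaving out 1 differentiation at a time gave the following ranges of members passing: 0 to 6 at 36 h, 0 to 4 at P1, 0 to 6 at P5 against P1, 0 to 6 at P8 against P5, 0 to 4 at P9 and P10 (P10.r1 alone included), 12 to 22 at P8 against t0, 0 to 58 over the steps, 13 to 41 for any difference, 0 to 0 at P5 MES against EPI, 0 to 40 in EPI and 0 to 32 in MES. The highest count came without r1 in each of these with a range, other than P1 and P9 and P10, where leaving out P1.r1 or P10.r1 gave as many or more. The share of all genes that fell was 10.4% without r1, 0.00% without r2 and 0.0156% without r3 in EPI. In MES it was 9.47%, 0.00% and 0.0781%, and at P8 against t0 24.8%, 14.4% and 17.4%. At P5 MES against EPI it was 0.196%, 0.00% and 0.00%. For any difference 68.7% of all genes passed with every differentiation in the fit, and the shares with 1 left out are not given. Steps into or out of P9 rest on 1 P9 library without r1 or without r2. Levels without 1 differentiation, t0 included, ran from 0.076 to 0.144 at 36 h, from 0.14 to 0.20 at P1, from 0.15 to 0.20 at P5, from -0.17 to 0.05 at P8, from -0.45 to -0.34 at P9, from -0.19 to -0.10 at P10, from 0.23 to 0.26 in P5 EPI and from 0.09 to 0.15 in P5 MES.

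The level was 0.21 at P1, 0.11 at P5, -0.52 at P9, 0.16 in P5 EPI and 0.086 in P5 MES as a median over members. On log2(TPM + 1) it was 0.33 at P5, 0.32 at P6, -0.30 at P9, 0.40 in P5 EPI and 0.26 in P5 MES, and with DESeq2 size factors it was 0.25 in P5 EPI. Of 494 values of the 54 named calls under the alternatives, 353 kept their side of the threshold, 141 lost the call and 0 turned direction. DESeq2 lost 0 of 54, no replicate block 31, and leaving out r2, r3 or r1 lost 42, 37 and 7. The cause was not tested.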
